A study of Saccharomyces cerevisiae with 6 samples.

Results

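The 10 genes described here encode enzymes of aromatic amino acid biosynthesis in *Saccharomyces cerevisiae*: *ARO1*, *ARO2*, *ARO3*, *ARO4*, *ARO7*, *ARO8*, *TRP2*, *TRP3*, *TRP4* and *TRP5*. They were chosen by name for their place in the pathway, from 6212 ORFs listed on the arrays, and all 10 had a value on all 6 arrays. Their response to rapamycin, an inhibitor of the TORC1 kinase complex, was measured in 3 strains of the BY4741 background, which carries *his3*, *leu2*, *met15* and *ura3* mutations in every strain compared. The strains were wild type cells, cells without the type 2C protein phosphatase Ptc6 (*ptc6*, made with the *nat1* marker), and cells without both Ptc1 and Ptc6 (*ptc1 ptc6*, made with *nat1* at *PTC1* and *kanMX4* at *PTC6*). For each strain a YPD culture grown at 28 °C was divided, and 1 aliquot received 200 ng/ml rapamycin for 1 h while the other was mock-treated.

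RNA of the treated and the mock-treated aliquot was hybridized together on an array, in Cy3 and Cy5, and once more with the dyes exchanged, so that each strain had 2 arrays. Both arrays of a strain hold the same RNA, so each strain is 1 biological replicate and no test between conditions or strains can be made. Every value is a log2 ratio of rapamycin-treated over mock-treated cells of the same strain. The ratio tells how a transcript responded and not how abundant it was, and in RNA of a whole culture fewer responding cells and a smaller response per cell cannot be told apart. The mean of the 2 arrays is given for each gene, a gene is called induced above 1 (more than 2-fold) and repressed below -1, and the range of the arrays covers technical spread only. Over the arrays, 3620 to 4546 ORFs had a value, the median log2 ratio of all ORFs ran from 0.01 to 0.10, and the SD of the difference between the arrays of a strain was 0.35 to 0.48. Of the deleted genes, *PTC6* gave 1.11 and 0.62 with wild type RNA and was without a value in both mutants, while *PTC1* gave only -0.28 on wild type array 2.

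Phenylalanine, tyrosine and tryptophan are made from a common route, the shikimate pathway, which joins phosphoenolpyruvate from glycolysis to erythrose 4-phosphate from the pentose phosphate pathway and ends in chorismate. From chorismate, a branch through prephenate leads to phenylalanine and tyrosine, and another through anthranilate and indole leads to tryptophan. In yeast the pathway is held back by its end products at the entry enzymes and at the branch point, and many of its genes are targets of Gcn4, the transcriptional activator of general amino acid control.

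In wild type cells, rapamycin split the pathway by gene rather than moving it as a unit. The tryptophan branch, *ARO1*, *ARO3* and *ARO8* had positive log2 ratios, whereas *ARO4*, *ARO2* and *ARO7* had negative ones. Of the 10 genes, 6 were induced, against 14.7% of all ORFs with a value on both wild type arrays, and 2 were repressed, against 18.8%. The median log2 ratio of the 10 genes was 1.10 and that of all ORFs was 0.02. In *ptc6* cells 3 genes were induced and 1 was repressed (10.6% and 14.2% of all ORFs), with a median of 0.90 against 0.07. In the double mutant 5 were above and 2 below these limits (12.2% and 15.2% of all ORFs), with a median of 1.03 against 0.03. At a limit of 1.5-fold in place of 2-fold, 7 genes were above it in each of the 3 strains. The share of all ORFs above 1.5-fold was not counted. Their upper quartile lay at log2 ratios of 0.595, 0.50 and 0.57 in wild type, *ptc6* and *ptc1 ptc6* cells. The sign of each gene held on every array, with 7 genes above 0 and 3 below 0 on all 6 arrays. How many of all ORFs kept their sign was not counted.

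**Figure D1:**
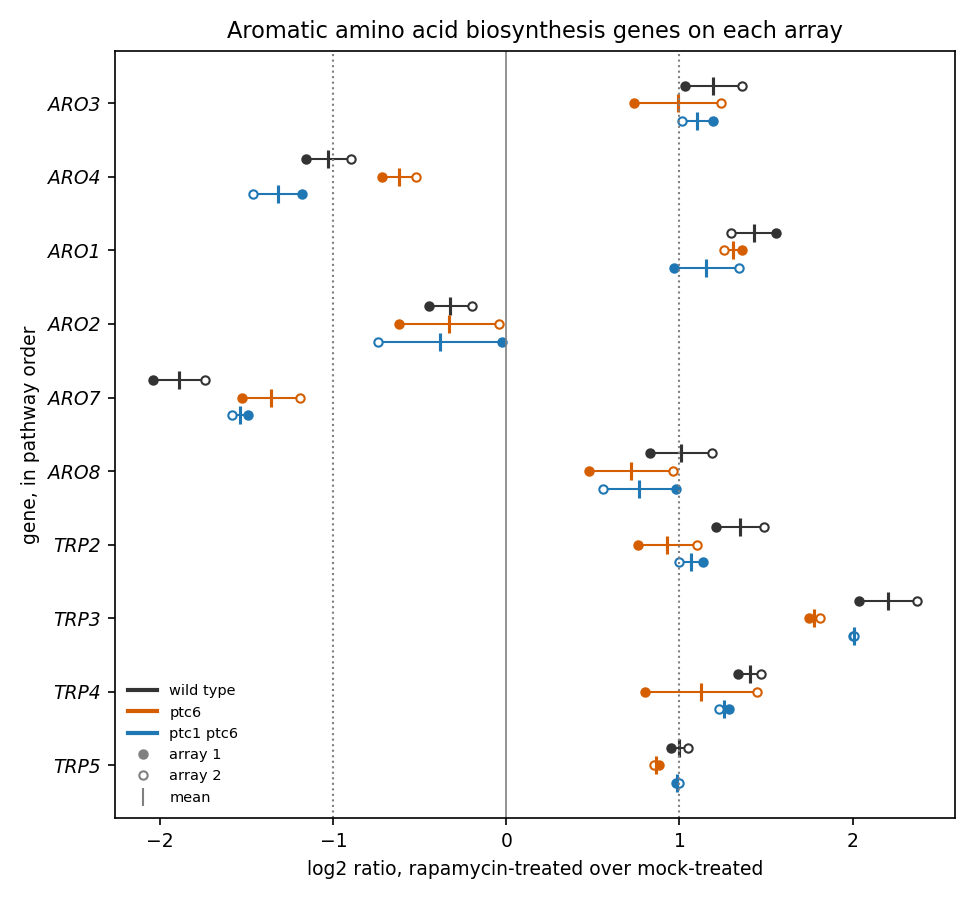
Log2 ratio of rapamycin-treated over mock-treated cells (x axis) for the 10 genes in pathway order (y axis), with filled points for array 1, open points for array 2 and a tick for their mean, in wild type (black), *ptc6* (orange) and *ptc1 ptc6* cells (blue). Dotted lines mark 2-fold. *ARO4*, *ARO2* and *ARO7* lie left of 0 on all 6 arrays and the other 7 genes lie right of 0.

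The pathway is entered through 2 isozymes of DAHP synthase, Aro3, which is inhibited by phenylalanine, and Aro4, which is inhibited by tyrosine. Their genes responded in opposite directions. *ARO3* (YDR035W, chromosome IV) had log2 ratios of 1.03 and 1.36 on the first and the second array of the wild type strain, 0.74 and 1.24 in *ptc6* cells, while *ptc1 ptc6* cells gave 1.19 and 1.01. *ARO4* (YBR249C, chromosome II) had -1.16 and -0.90 in wild type cells, -0.72 and -0.52 in *ptc6* cells, while *ptc1 ptc6* cells gave -1.18 and -1.46. The lowest *ARO3* value was 0.74 and the highest *ARO4* value -0.52. The mean *ARO3* ratio stood above 88.5% of all ORFs in wild type cells, and the mean *ARO4* ratio above only 18.5%.

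The distance between the isozyme genes, described because of their values, was taken within each array and is given first for the array with the treated RNA in Cy3 and then for that in Cy5. It was 2.19 and 2.26 log2 units in wild type cells, which makes the *ARO3* ratio 4.68 times that of *ARO4* by the means. It was 1.46 and 1.76 in *ptc6* cells, while *ptc1 ptc6* cells gave 2.48 and 2.37. The *ptc6* distances lay below those of both other strains. *ARO4* differed more from wild type cells than *ARO3* did in both mutants. Its mean fall, 2.04-fold in wild type cells, was 1.54-fold in *ptc6* cells and 2.50-fold in *ptc1 ptc6* cells.

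*ARO1* (YDR127W, chromosome IV) encodes the pentafunctional arom protein, which carries out the central steps of the shikimate pathway, and *ARO2* (YGL148W, chromosome VII) encodes chorismate synthase, which completes it. *ARO1* was induced in all 3 strains. Its log2 ratios were 1.56 and 1.30 in wild type cells, 1.36 and 1.26 in *ptc6* cells, while *ptc1 ptc6* cells gave 0.97 and 1.34, and the values of both mutants overlapped those of wild type cells. *ARO2*, the next gene along the route, was neither induced nor repressed in any strain, with -0.45 and -0.20, -0.62 and -0.04, and -0.03 and -0.74 in wild type, *ptc6* and *ptc1 ptc6* cells. Its mean moved least among the 3 strains, from -0.33 to -0.38.

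*ARO7* (YPR060C, chromosome XVI) encodes chorismate mutase, which commits chorismate to phenylalanine and tyrosine. It was the most repressed of the 10 genes in each strain, with log2 ratios of -2.04 and -1.74 in wild type cells, a 3.71-fold repression, -1.53 and -1.19 in *ptc6* cells, while *ptc1 ptc6* cells gave -1.49 and -1.59. The arrays of *ARO7* lay below those of *ARO4*, the next lowest gene, in every strain. *ARO8* (YGL202W, chromosome VII), for the aromatic aminotransferase I that makes phenylalanine and tyrosine from their keto acids, went the other way. Its log2 ratios were 0.83 and 1.19 in wild type cells, 0.48 and 0.96 in *ptc6* cells, while *ptc1 ptc6* cells gave 0.98 and 0.56. The wild type mean of 1.01 was just past 2-fold, and it was 0.98 with each array centred on its median, so this call rests on a small margin.

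Of the further genes of this branch, *TYR1*, for prephenate dehydrogenase on the way to tyrosine, had mean log2 ratios of 0.66 in wild type, 0.55 in *ptc6* and 0.97 in *ptc1 ptc6* cells. *PHA2*, for prephenate dehydratase on the way to phenylalanine, had -0.20, -0.71 and -0.59. Neither passed 2-fold in any strain.

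Each gene of the tryptophan branch had positive log2 ratios on every array. *TRP2* (YER090W, chromosome V) and *TRP3* (YKL211C, chromosome XI) encode the subunits of anthranilate synthase, which draws chorismate into the branch, and the Trp3 protein also carries indole-3-glycerol phosphate synthase. *TRP3* had the highest log2 ratios of the 10 genes, with 2.04 and 2.37 in wild type cells, a 4.61-fold induction, 1.75 and 1.81 in *ptc6* cells, while *ptc1 ptc6* cells gave 2.00 and 2.01. Its arrays lay above those of the next gene in each strain, and its wild type mean stood above 95.9% of all ORFs. *TRP2*, the partner subunit, had 1.21 and 1.49 in wild type cells, 0.76 and 1.10 in *ptc6* cells, while *ptc1 ptc6* cells gave 1.14 and 1.00.

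*TRP4* (YDR354W, chromosome IV) encodes anthranilate phosphoribosyltransferase, which attaches the ribose unit of PRPP to anthranilate. Its log2 ratios were 1.34 and 1.47 in wild type cells, 0.80 and 1.45 in *ptc6* cells, while *ptc1 ptc6* cells gave 1.28 and 1.23. The *ptc6* arrays were the farthest apart of any *TRP* gene, and the induction called in this strain was lost without array 2 (0.80). *TRP5* (YGL026C, chromosome VII) encodes tryptophan synthase, the last enzyme of the branch. Its arrays were the closest of the 10 genes in wild type and *ptc6* cells, with 0.95 and 1.05 in wild type cells, 0.88 and 0.85 in *ptc6* cells, while *ptc1 ptc6* cells gave 0.98 and 1.00. The wild type mean was exactly 1.00 and did not exceed the threshold, and counting it gives 7 induced genes in wild type cells. *TRP1*, for the isomerase between Trp4 and Trp3, which is intact in this background, had means of 0.78, 0.68 and 0.73 in the same order of strains.

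Ordered by their means, the 10 genes kept the same ends in the 3 strains, with *TRP3* highest and *ARO2*, *ARO4* and *ARO7* lowest. In wild type cells the 6 genes from *ARO1* (1.43) down through *TRP4*, *TRP2*, *ARO3* and *ARO8* to *TRP5* (1.00) each overlapped the next on their arrays. Within them, *ARO1*, *TRP4* and *TRP2* lay above *ARO8* and *TRP5* on both arrays, and *ARO3* overlapped all the others. Across the 10 genes, the Pearson correlation of the means with those of wild type cells was 0.994 for *ptc6* and 0.991 for *ptc1 ptc6* cells, and Spearman's rho was 0.976 and 0.964. These coefficients describe 10 genes, which are not independent replicates.

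**Figure D2:**
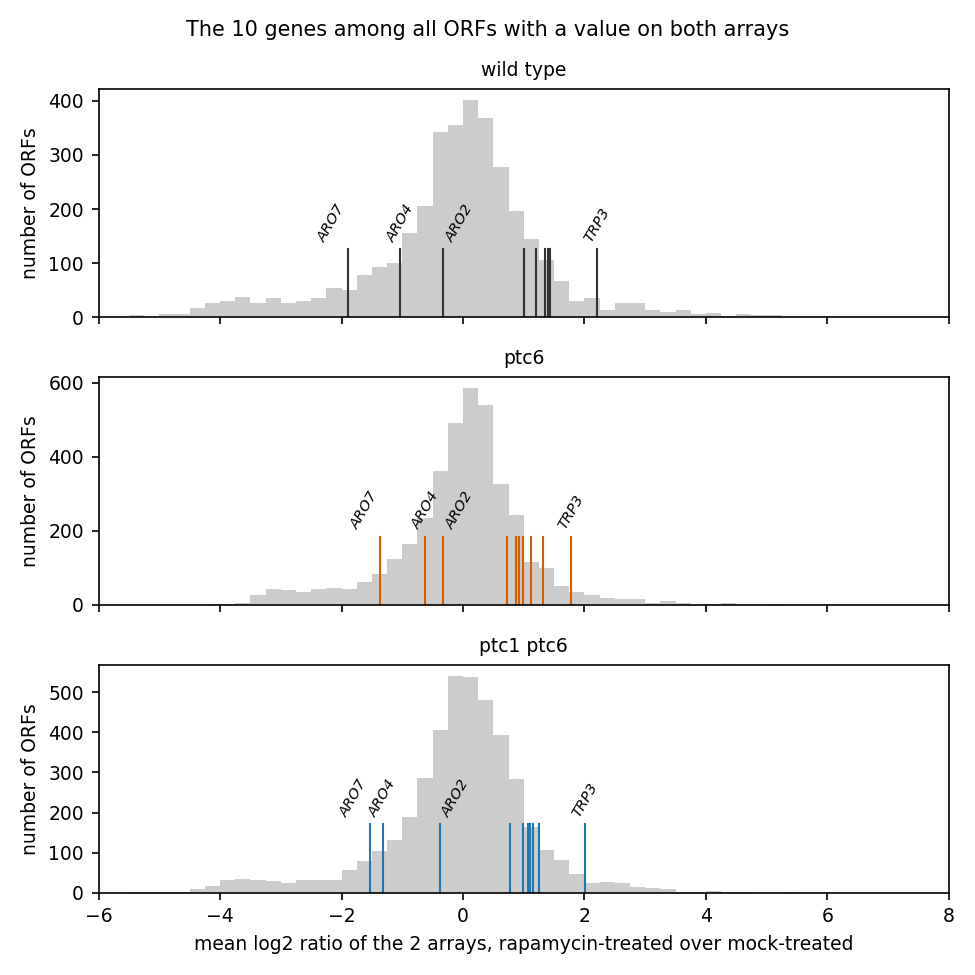
Number of ORFs (y axis) by mean log2 ratio of the arrays of a strain (x axis), in grey for all ORFs with a value on both arrays, with a coloured line for each of the 10 genes. The group lies on both sides of the peak at 0 in each strain, with *ARO7* at -1.89, -1.36 and -1.54 and *TRP3* at 2.21, 1.78 and 2.01 in wild type, *ptc6* and *ptc1 ptc6* cells.

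The question of the strain comparison was whether the response to rapamycin depends on Ptc6, alone or together with Ptc1. In *ptc6* cells the mean log2 ratio of 9 of the 10 genes was closer to 0 than in wild type cells, and so was that of 69.1% of all ORFs. In *ptc1 ptc6* cells this held for 8 of the 10 genes and 60.1% of all ORFs. The median difference of *ptc6* from wild type cells was -0.17, with a range from -0.43 for *TRP3* to 0.53 for *ARO7*, while the median difference of all ORFs was 0.05. These medians cover sets of unlike sign. In wild type cells 7 of the 10 genes had positive ratios, whereas 511 of all ORFs were induced and 655 repressed. The size of the median difference of the 10 genes depended on each array. It was -0.0025 without *ptc6* array 1, -0.375 without *ptc6* array 2, and -0.27 and -0.10 when the first or the second wild type array was left out. For *TRP2*, *TRP3* and *TRP5*, 3 of the 10 genes, both *ptc6* values lay below both wild type values, as they did for 17.5% of all ORFs. For *ARO4* and *ARO7*, 2 of the 10, both *ptc6* values lay above, as for 30.7% of all ORFs. The other 5 genes overlapped.

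Many of the 10 genes gave a higher ratio when the treated RNA carried Cy5. This was so in all 3 strains for 7 of the 10 genes, against 35.4% of the 3110 ORFs with a value on all arrays, and *ARO1* showed the reverse in all 3 strains. For *ARO2* the shift was 0.25, 0.58 and 0.71 log2 units in wild type, *ptc6* and *ptc1 ptc6* cells, more than the size of its mean response in both mutants. The mean over both dyes holds each orientation equally. Strains were therefore also compared between the arrays on which the treated RNA carried the same dye, a comparison added after the data were seen. On this basis 7 of the 10 genes were lower in *ptc6* than in wild type cells in both dye orientations, against 29.2% of all ORFs, and these were the 7 genes with positive ratios. The 29.2% covers ORFs of either sign, and no share was counted over ORFs with positive ratios alone. The 6 genes induced in wild type cells kept a median of 80.4% of their log2 ratio in *ptc6* cells, against 81.4% for all induced ORFs. The differences for Cy3 and Cy5 were -0.45 and -0.39 for *TRP2*, -0.29 and -0.56 for *TRP3*, and -0.35 and -0.23 for *ARO8*. They were as uneven as -0.54 and -0.02 for *TRP4*. *ARO7* (0.51 and 0.55) and *ARO4* (0.44 and 0.38) were higher in *ptc6* cells in both orientations, and *ARO2* had -0.17 and 0.16.

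**Figure D3:**
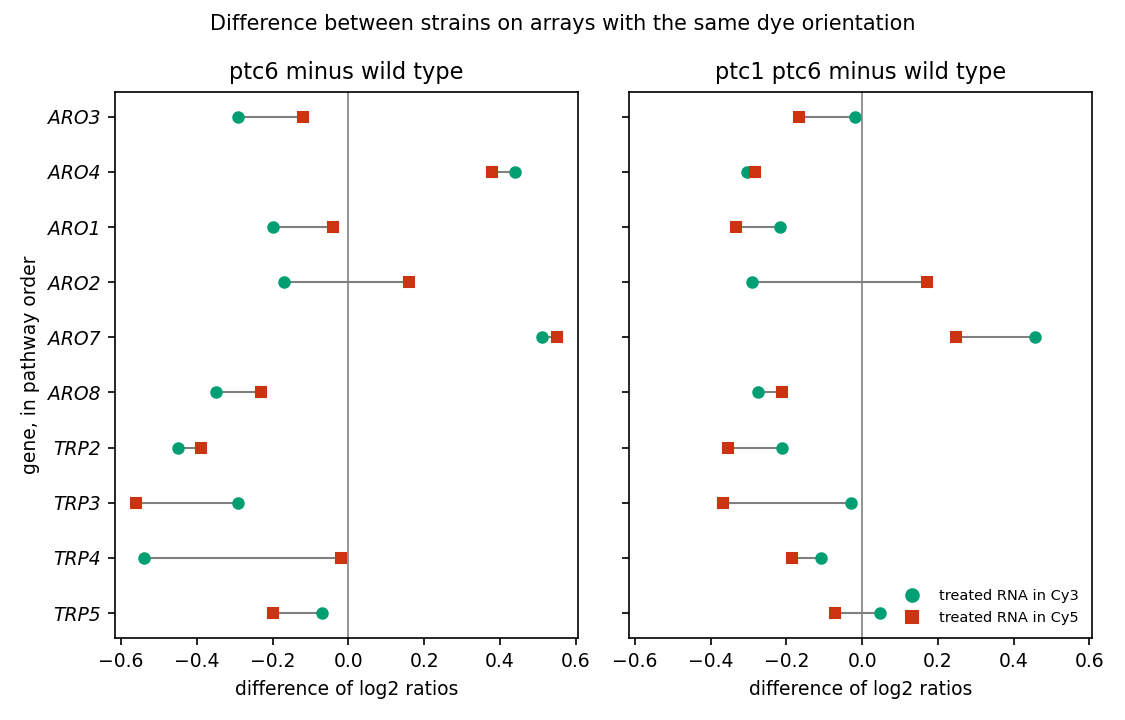
Difference of log2 ratios, mutant minus wild type (x axis), for the 10 genes (y axis), between arrays whose treated RNA carried Cy3 (green circles) or Cy5 (red squares), for *ptc6* (left) and *ptc1 ptc6* cells (right). *ARO4* lies at 0.44 and 0.38 on the left and at -0.30 and -0.28 on the right.

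In *ptc1 ptc6* cells the median difference from wild type cells was -0.17, against -0.03 for all ORFs, again over sets of unlike sign. It was -0.05 without array 2 of wild type cells and -0.08 without array 2 of *ptc1 ptc6* cells. Both values lay below both wild type values for *ARO4*, *TRP2*, *TRP3* and *TRP4*, 4 of the 10 genes, against 25.0% of all ORFs, and above them for *ARO7* alone, against 21.7%. The separations of *TRP3* and *ARO4* were narrow, with 2.01 below 2.04 for *TRP3* and -1.18 below -1.16 for *ARO4*. With each array centred on its median the number below stayed at 4, but *ARO4* overlapped wild type cells and *ARO1* took its place. With the same dye compared, 7 of the 10 genes were lower in *ptc1 ptc6* cells in both orientations, against 37.6% of all ORFs, of either sign. These were *ARO1*, *ARO3*, *ARO4*, *ARO8*, *TRP2*, *TRP3* and *TRP4*, a different set from that of *ptc6* cells. It holds *ARO4*, for which lower means more repressed, and leaves out *TRP5* (0.05 and -0.07 for Cy3 and Cy5). *ARO3* differed by only -0.02 and -0.17. *TRP2* differed by -0.21 and -0.36 for Cy3 and Cy5, *ARO1* by -0.22 and -0.33, and *TRP3* by -0.03 and -0.37.

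*ARO4*, described because of its values, alone of the 10 genes lay on opposite sides of wild type cells, above in *ptc6* and below in *ptc1 ptc6* cells. In this direction, 2.25% of the 3110 ORFs with all values did so (1.75% without the ORFs of chromosomes XII and XIII). ORFs on opposite sides in the reverse direction were not counted. For *ARO4* the *ptc1 ptc6* side was narrow (-1.18 below -1.16) and was lost with each array centred on its median. The difference between the mutants was -0.70 (*ptc1 ptc6* minus *ptc6*), and -0.74 and -0.66 for Cy3 and Cy5. It was also the only one of the 10 whose *ptc1 ptc6* values both lay below both *ptc6* values, against 27.9% of all ORFs. *TRP3* and *TRP5*, 2 of the 10, lay above in the same sense, against 14.3% (11.6% without those chromosomes), by 0.23 and 0.12 log2 units. The other 7 genes overlapped.

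As a share of the wild type log2 ratio, the 6 genes induced in wild type cells kept a median of 80.4% in *ptc6* cells, from 68.9% for *TRP2* to 91.6% for *ARO1*. All 473 ORFs induced in wild type cells and measured in both strains kept a median of 81.4%. In *ptc1 ptc6* cells the 6 genes kept a median of 85.2%, from 75.9% for *ARO8* to 92.2% for *ARO3*, and the 478 induced ORFs kept 81.3%. The genes enter both medians through their wild type ratio, which is also the denominator, so the shares are a description. The repressed genes kept 72.0% (*ARO7*) and 60.2% (*ARO4*) in *ptc6* cells. In *ptc1 ptc6* cells the same genes kept 81.4% and 128.4%. The share kept by all repressed ORFs was not counted, and the medians of induced ORFs are no comparison for these genes. They too were selected by the wild type ratio that is the denominator.

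The genes around the pathway were taken from lists of 34 genes by function. The catabolic route of the aromatic amino acids, which yeast uses to take nitrogen from them, responded more than any of the 10 biosynthetic genes. *ARO9*, for the aromatic aminotransferase II, had log2 ratios of 3.34 and 3.49 in wild type cells, 2.73 and 3.12 in *ptc6* cells, while *ptc1 ptc6* cells gave 3.26 and 2.89. *ARO10*, for the decarboxylase that follows, had 3.27 and 3.85, 2.63 and 2.99, and 2.82 and 3.29. Both lay above *TRP3* on every array. *ARO80*, their transcriptional activator, had no value on any array.

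The list of precursor supply held genes of the pentose phosphate route and of PRPP synthesis. No measured gene on it was induced, against 14.7%, 10.6% and 12.2% of all ORFs in wild type, *ptc6* and *ptc1 ptc6* cells. Glycolytic genes, which supply phosphoenolpyruvate, were not on the list. Of its 11 genes 9 were measured, and 5 fell past 2-fold in wild type cells, 4 in *ptc6* cells and 5 in *ptc1 ptc6* cells. These compare with 18.8%, 14.2% and 15.2% of all ORFs, and the list medians were -1.04, -0.99 and -1.08. *ZWF1*, of the pentose phosphate route, had positive means of 0.70, 0.805 and 0.81. *PRS1*, *PRS3*, *PRS4* and *PRS5* make PRPP, the substrate of Trp4, and had wild type means of -2.57, -2.10, -2.25 and -1.04. In *ptc6* cells *PRS1*, *PRS3* and *PRS4* had -1.735, -1.32 and -1.18, with both arrays above those of wild type cells. This was so for 30.7% of all ORFs, and the arrays of *PRS5* (-0.985) overlapped. *RKI1*, for ribose 5-phosphate isomerase, had the lowest mean of the lists, -4.22 in wild type, -4.01 in *ptc6* and -4.70 in *ptc1 ptc6* cells, although its arrays in the double mutant were as far apart as -5.62 and -3.78. *TKL1*, for the transketolase that yields erythrose 4-phosphate, had means of -0.59, -0.52 and -0.31. Both its *ptc1 ptc6* values lay above both wild type values, as for 21.7% of all ORFs.

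**Figure D4:**
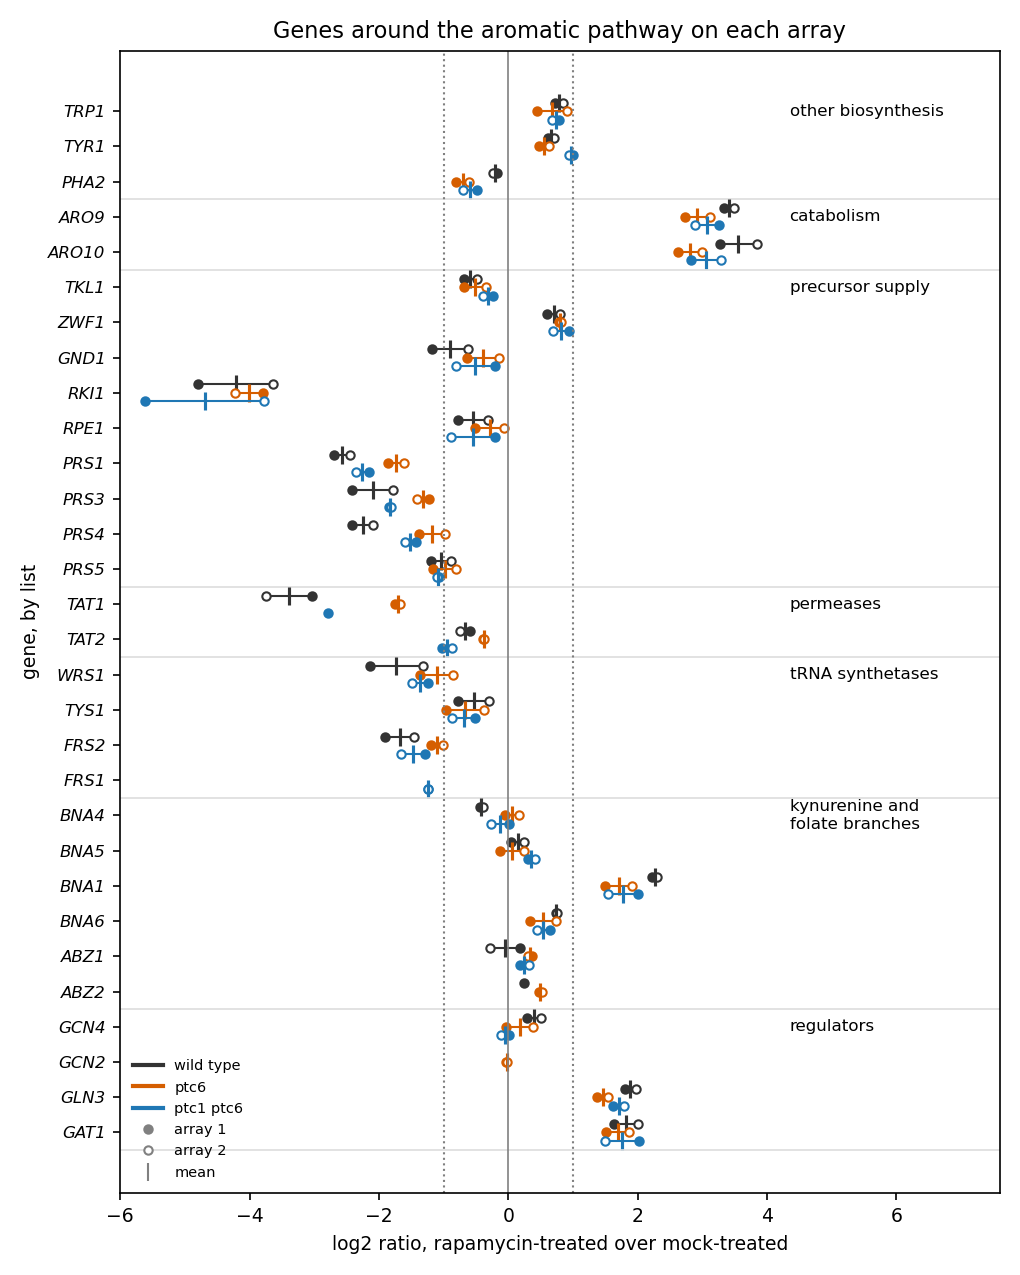
Log2 ratio of rapamycin-treated over mock-treated cells (x axis) for the genes around the pathway that had values (y axis), grouped by function, with filled points for array 1, open points for array 2, a tick for the mean of both and dotted lines at 2-fold. *ARO9* and *ARO10* lie farthest right, at wild type means of 3.42 and 3.56, and *RKI1* farthest left, at -4.22.

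Among genes for uptake and charging of the same amino acids, 3 of 5 measured were repressed in wild type cells, against 18.8% of all ORFs. *TAT1*, a permease for tyrosine and tryptophan, had -3.03 and -3.74 in wild type cells and -1.75 and -1.67 in *ptc6* cells, with no overlap, and a single value of -2.78 in *ptc1 ptc6* cells. *TAT2*, the high-affinity tryptophan permease, had means of -0.67, -0.38 and -0.95. Of the aminoacyl-tRNA synthetases, *WRS1* for tryptophan had means of -1.73, -1.11 and -1.37 and *FRS2* for phenylalanine -1.68, -1.11 and -1.47, so both were repressed in each strain, whereas *TYS1* for tyrosine had -0.53, -0.68 and -0.69. *FRS1* had values in *ptc1 ptc6* cells only, with a mean of -1.24. It lies on chromosome XII, where *ptc1 ptc6* and wild type means did not correlate across genes (-0.004), so this value is uncertain.

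Among 7 genes that use chorismate or tryptophan for other products, *BNA1* of the kynurenine route to NAD was induced in each strain, with means of 2.27, 1.71 and 1.78, and no other measured gene passed 2-fold. *GCN4*, whose protein level is set mainly by translation, had transcript ratios of 0.40, 0.18 and -0.05. The GATA factor genes *GLN3* (1.89, 1.46 and 1.71) and *GAT1* (1.82, 1.69 and 1.76), activators of nitrogen catabolite genes, were induced in each strain.

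The median of the 10 genes on each array was also matched against every other ORF with 6 values. The nearest by root mean square difference over the 6 arrays were *PTK2* (0.07 log2 units), *TWF1* (0.08), *GCV1* (0.09), *AIM41* (0.10) and *ARC19* (0.11). *PTK2*, for a protein kinase, had means of 1.16, 0.90 and 1.09, and *GCV1*, for a subunit of the glycine cleavage complex, had 1.07, 0.97 and 0.92. None of the 5 is a gene of the pathway.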

How the data were processed

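The authors hybridized cDNA from 8 µg of total RNA to ORF arrays, left out spots under 120 µm or 150 fluorescence units, and deposited 1 log2 ratio per ORF and array. The base was taken from the paper and the direction from the sample titles. Equal signs on dye-swapped arrays show only that both orientations share a direction. The centring method is not given in the sources used here. Spot intensities were not used here, and the signal over background behind each ratio is unknown. Of 6212 ORFs, 5639 were matched by locus tag to the R64 annotation, used for symbols and chromosomes; the build behind the arrays is not stated and no coordinates or sequences are given. Values were not normalized again. Means needed a value on both arrays. The 2-fold limits follow the study. With 1 biological replicate per strain no test was run, and the number of arrays limits precision. Strain separation means that the 4 values of a gene do not overlap. With so few arrays, values can separate in this way without any difference between strains. The members and lists were chosen with earlier results of these data known; the lists come from general knowledge. Named genes are the members, the list genes and the 5 ORFs nearest to the members' median profile. The code that makes the calls was run on simulated data, which checks the code only and not the calls reported for these genes. Alternatives were a value on 1 array, centred arrays, linear means, 1.5-fold, 2-fold on each array, same-dye arrays and each array left out. Python 3.11.15, numpy 2.4.6 and pandas 2.3.3 were used.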

Additional observations from a re-analysis of the deposited data

How the results depend on the processing

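All 10 genes had every value, so requiring a value on 1 array gave the same results as requiring it on both. At 1.5-fold, 7 genes were past the threshold in each of the 3 strains, where the 2-fold limit gave 6, 3 and 5. With 2-fold required on each array, 3 were induced in *ptc1 ptc6* cells. With an array of the strain left out, the number induced ran from 5 to 7 in wild type, 2 to 5 in *ptc6* and was 4 in *ptc1 ptc6* cells. The share of all ORFs was not counted at these alternative settings. The median of *ptc1 ptc6* cells was 0.98 with arrays centred on their medians, and 0.98 to 1.00 (0.9785 to 0.998) with an array left out. The median difference from wild type cells was -0.0025 when the first *ptc6* array was left out and -0.375 when the second was (-0.265 and -0.0975 for the wild type arrays), and for *ptc1 ptc6* cells it ranged from -0.0485 without wild type array 2 to -0.235 without wild type array 1. Leaving out an array unbalances the dyes. With the treated RNA in Cy3 only the medians were -0.25 and -0.16, and in Cy5 only -0.08 and -0.20. Of 150 alternative values of single genes, 0 changed sign and 11 changed a call: 8 with an array left out (without array 1, *ARO4* at -0.90 and *TRP5* at 1.05 in wild type, *ARO3* at 1.24 and *TRP2* at 1.10 in *ptc6* and *TRP2* at 0.998 in *ptc1 ptc6* cells, and without array 2, *ARO8* at 0.83 in wild type, *TRP4* at 0.80 in *ptc6* and *ARO1* at 0.967 in *ptc1 ptc6* cells), 2 with linear means (*TRP5* in wild type and *ARO3* in *ptc6* cells) and 1 with centred arrays (*ARO8* in wild type cells). No paired analysis was possible because a strain is 1 biological replicate and no test was made. Pairing arrays by dye is a description.

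The 10 genes lie on chromosomes where wild type and *ptc1 ptc6* means correlated across genes at 0.940 to 0.973. On chromosomes XII and XIII, where its cause was not tested, this was -0.004 and 0.551. Without their ORFs, a choice made after seeing the data, the share of all ORFs below wild type went from 17.5% to 18.1% in *ptc6*. In *ptc1 ptc6* cells it went from 25.0% to 23.2%, and the share above *ptc6* cells from 14.3% to 11.6%. The share above wild type in *ptc6* and below it in *ptc1 ptc6* cells went from 2.25% to 1.75%. *FRS1* and *BNA5* are on chromosome XII and *ABZ2* on XIII.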
